A study of Mus musculus with 12 samples.

Results

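Hspa1a, Hspa1b, Dnajb1, Dnaja1, Ahsa2 and Dedd2 are heat shock chaperone and cochaperone genes, together with 1 gene of the death effector domain family that shares their pattern. They are 6 of the 3534 genes in a table of mouse aorta expression values, and they were chosen by their measured FPKM values, each high in the group titled HAPN beside the groups titled HFD and HSAPN. Differences that involve HAPN are therefore a description here, with no test for these genes. All 6 passed the filter on low values, which kept 1656 genes with at least 1 FPKM (fragments scaled to transcript length and sequencing depth) in at least 3 libraries.

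The study sequenced mRNA of aorta from mice on a normal diet or on a high-fat diet with 60% of its calories as fat, given for 12 weeks to induce type 2 diabetes. WT mice had the wild-type genotype and the normal diet. HFD and HAPN mice had the wild-type genotype and the high-fat diet, and HSAPN mice carried an APPL1 knockdown on the high-fat diet. The sources used here do not say what sets HAPN apart from HFD, what the letters HAPN and HSAPN stand for, how the knockdown was made or which cells it reached. Appl1, the targeted gene, was not analysed here, so the knockdown label has no check. Each group has 3 files, but HFD replicates 1 and 2 hold identical values and were counted as 1 library, which leaves 3 WT, 2 HFD, 3 HAPN and 3 HSAPN libraries. The labels do not say that replicates are separate animals, so the p-values measure only the spread between these samples, which may be technical.

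Heat shock proteins are chaperones that bind unfolded or damaged proteins in the cytosol and help them refold. In stressed cells heat shock factor 1 binds short inverted repeats of the motif GAA near the gene start and drives a rapid burst of transcription, and HSP70 is its classic product. HSP70 works with J-domain partners that bring it substrates and trigger its ATPase, and it passes some substrates to HSP90, which has cochaperones of its own. Hspa1a and Hspa1b encode the 2 stress-inducible HSP70 proteins, Dnajb1 and Dnaja1 encode J-domain (HSP40) partners, and Ahsa2 is a homolog of the activator of the HSP90 ATPase. Dedd2 encodes a nuclear protein with a death effector domain and is no chaperone.

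The promoters are shown first because the 6 genes were high together and because the HSP70 genes form a tandem pair. On mouse build GRCm38, Hspa1b lies at chr17:34956436-34959238 and Hspa1a at chr17:34969190-34972156, both on the minus strand with 1 exon each and 9951 bases between them. The 250 bases before each start, from RefSeq on GRCm38.p6, are printed 5′ to 3′ on the gene's own strand. They are chr17:34959239-34959488 for Hspa1b and chr17:34972157-34972406 for Hspa1a. A 60-base stretch of the first Dnaja1 window, chr4:40722318-40722377 on the plus strand, covers bases 150 to 91 before its RefSeq start. Gene spans in this text come from the GENCODE annotation, whose starts can differ from those of RefSeq. The GENCODE span of Dnaja1 begins at chr4:40722150, so the printed stretch lies inside that span. Capitals mark matches to GAANNTTC, a pair of facing GAA repeats.
Hspa1b: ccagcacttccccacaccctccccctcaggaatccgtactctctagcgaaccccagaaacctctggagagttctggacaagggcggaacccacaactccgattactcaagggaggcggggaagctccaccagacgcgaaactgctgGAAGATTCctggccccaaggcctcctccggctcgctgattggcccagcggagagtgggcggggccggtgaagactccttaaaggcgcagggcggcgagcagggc
Hspa1a: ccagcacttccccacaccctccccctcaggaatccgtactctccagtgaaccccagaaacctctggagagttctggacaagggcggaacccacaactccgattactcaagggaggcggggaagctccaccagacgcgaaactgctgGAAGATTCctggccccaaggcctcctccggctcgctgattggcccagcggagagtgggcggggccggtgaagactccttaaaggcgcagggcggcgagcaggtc
Dnaja1: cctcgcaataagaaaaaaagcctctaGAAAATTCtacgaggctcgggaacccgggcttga
The HSP70 windows were 98.8% identical over 250 bases. Their 3 substitutions, Hspa1b first and counted from 1 at the 5′ end of the window, were T44C, C47T and G249T, all outside the marked match. The match GAAGATTC lay 104 to 97 bases before the start in both.

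All 6 genes had RefSeq windows, 9 in number because Dnaja1 has 3 annotated starts and Dnajb1 has 2. GAANNTTC, which reads the same on both strands, was found in the Hspa1a and Hspa1b windows and in the first Dnaja1 window, where GAAAATTC lay 124 to 117 bases before the start. Over all 32817 mouse windows of the same length, 6.69% held it. The other orientation, TTCNNGAA, was in none of the 9 windows and in 7.16% of all windows. A longer motif of 3 alternating repeats, GAANNTTC followed by NNGAA, searched on both strands and overlapping both shorter motifs, was in none of the 9 and in 0.47% of all. CCAAT, on either strand, was in both HSP70 windows at 67 to 63 bases before the start, in the first Dnajb1 window, in the Ahsa2 window and in the other two Dnaja1 windows, against 33.83% of all windows. The Dedd2 window, chr7:25219860-25220109, held none of these motifs. It lies inside the GENCODE span of the gene, as do all Dnaja1 windows and the second Dnajb1 window. A match describes letters in the window and no match says only that these letters are not in it.

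Of the 6 genes, the HSP70 pair had the largest ratios between HAPN and the other groups. Hspa1b was at 91.0, 64.2 and 20.3 FPKM in HAPN replicates 1, 2 and 3. It was at 5.22, 8.06 and 8.29 FPKM in WT, at 3.36 and 2.49 in HFD, and at 2.57, 2.03 and 2.28 in HSAPN. The lowest HAPN library lay 2.45 times above the highest of the other 8, and WT lay above HFD and HSAPN without overlap. Group means were 58.5 ± 35.7 FPKM (SD, n = 3) in HAPN, 7.19 ± 1.71 (SD, n = 3) in WT, 2.93 ± 0.620 (SD, n = 2) in HFD and 2.29 ± 0.266 (SD, n = 3) in HSAPN. The ratio of HAPN to HFD means was 19.99, that of HAPN to WT means 8.14 and that of HAPN to HSAPN means 25.5. On the log2(FPKM + 1) scale, the HAPN minus HFD difference of 3.69 was the largest of all 1656 tested genes, and its HAPN minus WT difference ranked 7 from the highest.

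Hspa1a, the tandem copy, was lower in level and had the same order of groups. It was at 25.6, 18.7 and 5.82 FPKM in HAPN. It was at 2.52, 3.22 and 2.44 FPKM in WT, at 1.72 and 1.09 in HFD, and at 1.05, 0.845 and 0.772 in HSAPN. No 2 groups overlapped, and the lowest HAPN library was 1.81 times the highest of the others. The mean was 16.7 ± 10.03 FPKM (SD, n = 3) in HAPN against 2.73 ± 0.431 (SD, n = 3) in WT, 1.41 ± 0.440 (SD, n = 2) in HFD and 0.889 ± 0.144 (SD, n = 3) in HSAPN. Mean HAPN levels were 11.9 times those of HFD, 6.12 times those of WT and 18.8 times those of HSAPN. The low end rests on few reads, from 38 in HSAPN replicate 3 to 81 in HFD replicates 1 and 2, recovered from the FPKM values and the exonic length. In HAPN replicate 1 Hspa1a had 1226 reads and Hspa1b had 4119.

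**Figure D1:**
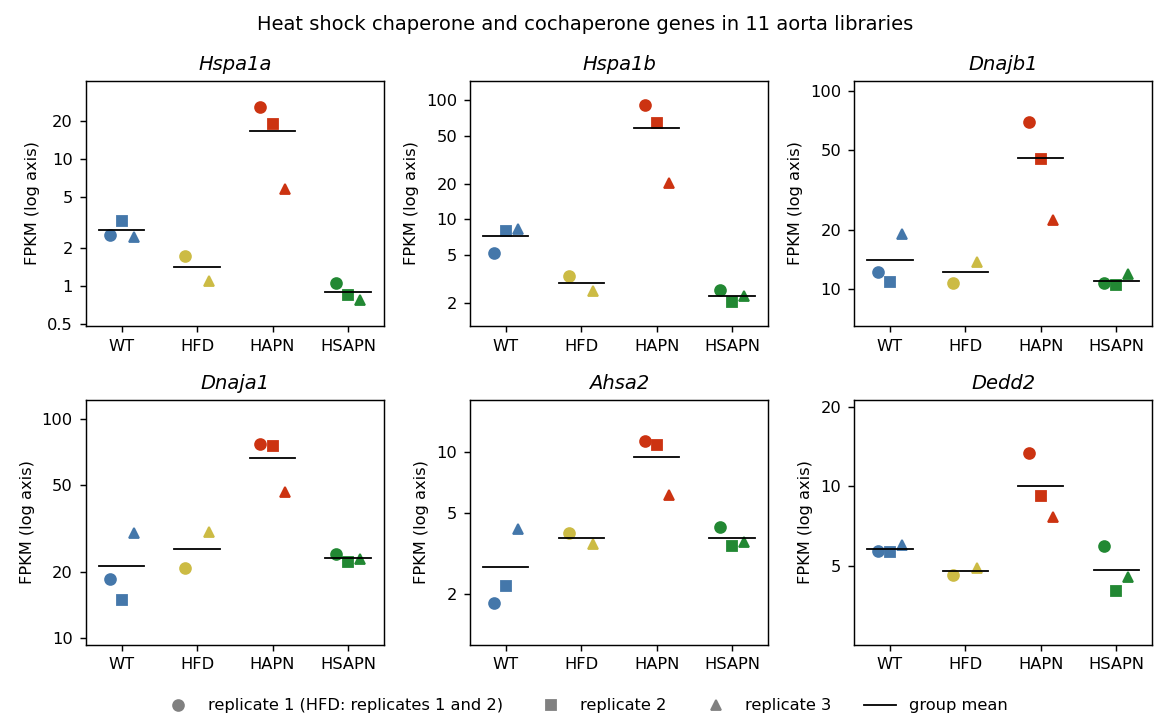
FPKM (log axis, a separate range in each panel) of the 6 genes in 11 aorta libraries by group; each symbol is 1 library, its shape gives the replicate and the line is the group mean. In every panel the 3 HAPN libraries lie above all 8 others, with HAPN replicate 1 highest and HAPN replicate 3 lowest of the 3.

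The J-domain genes had higher base levels and smaller steps. Dnajb1, at chr8:83608193-83612653 on the plus strand with 4 exons, encodes the J-domain partner most closely tied to stress-inducible HSP70. It was at 69.8, 45.3 and 22.4 FPKM in HAPN, 12.3, 10.9 and 19.0 in WT, 10.7 and 13.8 in HFD, and 10.7, 10.5 and 11.9 in HSAPN. HAPN replicate 3 was only 1.18 times WT replicate 3, the narrowest gap of the 6 genes, and the other 3 groups overlapped. Means were 45.8 ± 23.7 FPKM (SD, n = 3) in HAPN, 14.1 ± 4.35 (SD, n = 3) in WT, 12.3 ± 2.16 (SD, n = 2) in HFD and 11.03 ± 0.752 (SD, n = 3) in HSAPN.

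Dnaja1, at chr4:40722150-40737149 on the plus strand with 9 exons, encodes a farnesylated J-domain protein that serves the constitutive HSP70 as well. Its FPKM values were 76.6, 75.0 and 46.5 in HAPN, 18.6, 14.95 and 30.2 in WT, 20.8 and 30.3 in HFD, and 24.2, 22.3 and 22.9 in HSAPN. HAPN stood apart and the other 3 groups overlapped, with WT replicate 3 and HFD replicate 3 the highest libraries outside HAPN. The HAPN mean of 66.1 ± 16.9 FPKM (SD, n = 3) was 2.58 times the HFD mean, 3.11 times the WT mean and 2.85 times the HSAPN mean.

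Ahsa2, at chr11:23487882-23498030 on the minus strand with 9 exons, was the lowest of the other genes in level. It was at 11.3, 10.9 and 6.16 FPKM in HAPN, 1.82, 2.20 and 4.18 in WT, 3.995 and 3.54 in HFD, and 4.29, 3.45 and 3.63 in HSAPN. Outside HAPN the order differed from that of HSP70, with WT lowest in mean, at 2.73 ± 1.27 FPKM (SD, n = 3). WT, HFD and HSAPN overlapped. Dedd2, at chr7:25199915-25220615 on the minus strand with 5 exons, was at 13.3, 9.17 and 7.66 FPKM in HAPN, 5.67, 5.65 and 5.99 in WT, 4.63 and 4.92 in HFD, and 5.93, 4.02 and 4.53 in HSAPN. Its HAPN mean of 10.04 ± 2.92 FPKM (SD, n = 3) was 2.11 times the HFD mean and 1.74 times the WT mean, the smallest steps of the 6.

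Across the 6 genes, HAPN minus HFD differences on the log2(FPKM + 1) scale were 3.69 for Hspa1b, 2.68 for Hspa1a, 1.69 for Dnajb1, 1.32 for Dnaja1, 1.09 for Ahsa2 and 0.90 for Dedd2. HSAPN minus HAPN differences had the same order of size, from -3.94 for Hspa1b to -0.90 for Dedd2. HAPN minus WT differences were 2.64, 2.04, 1.53, 1.61, 1.497 and 0.67 for Hspa1b, Hspa1a, Dnajb1, Dnaja1, Ahsa2 and Dedd2. These 3 comparisons share the HAPN libraries, and the first chose the genes together with the second. All 6 genes had HAPN above HFD without overlap, as had 6.52% of all tested genes, and all 6 had HSAPN below HAPN, as had 7.55%. All 6 had HAPN above WT, as had 7.13%. The choice of the genes fixes the counts against HFD and HSAPN. It also favours the count against WT, since genes with high HAPN values were chosen. Nothing is read from these counts. The spread inside HAPN was wide and shared: replicate 1 was highest and replicate 3 lowest for all 6 genes. Without HAPN replicate 3 or another single library, the HAPN minus HFD difference of Hspa1b ranged from 3.26 to 4.31 and that of Dedd2 from 0.70 to 1.06.

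**Figure D2:**
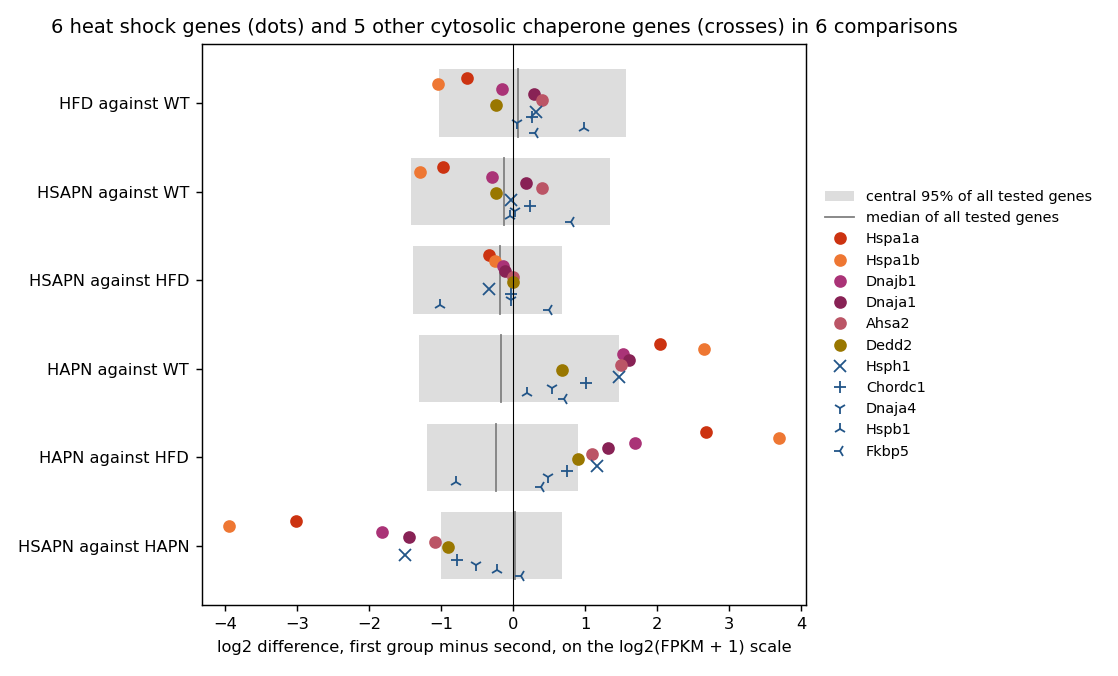
Differences between group means on the log2(FPKM + 1) scale, first group minus second, for the 6 genes (dots) and 5 other cytosolic chaperone genes (crosses); the grey band is the central 95% of 1656 tested genes and the dark line their median. The 6 genes run from 0.90 to 3.69 in HAPN against HFD and lie between -1.29 and 0.41 in the 3 comparisons without HAPN.

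The comparisons without HAPN were tested with limma, though they share the HFD and HSAPN libraries with those that chose the genes. That choice took genes low in HFD and HSAPN beside HAPN, which favours values below WT in advance. HFD against WT asks what the high-fat diet did. The HFD minus WT log2 difference of Hspa1b was -1.05 (SE 0.510, 95% interval -2.19 to 0.10, limma adjusted p = 0.469) and that of Hspa1a was -0.64 (SE 0.471, -1.70 to 0.42, limma adjusted p = 0.626). Dnajb1 and Dedd2 differed by -0.16 and -0.23, and Dnaja1 and Ahsa2 by 0.29 and 0.40, with limma adjusted p from 0.642 to 0.916. No member of the 6 passed the threshold of 0.05, and 0% of all tested genes did (0 of 1656, with 189 at an unadjusted p under 0.05). Hspa1a, Hspa1b and Dedd2 were lower in HFD without overlap, 3 of 6 against 7.19% of all tested genes. The median of the 6 differences was -0.19, against 0.07 for all tested genes. Because of the choice of the genes, nothing about diet is read from this count or median.

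HSAPN and WT differ, by the labels, in both diet and the knockdown, and any further treatment of HSAPN is not stated. Hspa1b was at -1.29 (SE 0.456, 95% interval -2.32 to -0.27, limma adjusted p = 0.168) and Hspa1a at -0.98 (SE 0.422, -1.92 to -0.03, limma adjusted p = 0.222), both lower without overlap. In linear terms mean Hspa1b in WT was 3.14 times that in HSAPN, and mean Hspa1a was 3.07 times. The other 4 genes overlapped between the groups, with Dnajb1 at -0.29, Dedd2 at -0.23, Dnaja1 at 0.17 and Ahsa2 at 0.41. The 2 of 6 lower without overlap compare with 19% of all tested genes, a count that the choice of genes low in HSAPN favours. Of all tested genes, 0% were called (360 at an unadjusted p under 0.05). With library weights that favour libraries close to their group, the Hspa1b difference of -1.37 passed (limma adjusted p = 0.0350), as did 395 of the 1656 tested genes under the same weights. Over all alternatives its adjusted p ran from 0.0350 to 0.475.

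HSAPN against HFD compares the knockdown group with wild-type mice on the same diet, and any further treatment of HSAPN is not stated. None of the 6 genes was called, and 0% of all tested genes were (66 at an unadjusted p under 0.05). Differences were -0.34 for Hspa1a (95% interval -1.40 to 0.72), -0.25 for Hspa1b (-1.39 to 0.90), -0.13 for Dnajb1 (-1.05 to 0.79) and -0.12 for Dnaja1 (-0.84 to 0.60), with limma adjusted p from 0.905 to 0.942. Ahsa2 and Dedd2 were both at 0.00, with intervals of -0.70 to 0.70 and -0.53 to 0.53. Only Hspa1a was lower without overlap, 1 of 6 against 14.1% of all tested genes. With median-ratio scaling, which moves the median of all tested genes by 0.16 in this comparison, Dnajb1 and Dnaja1 turned to 0.04 and 0.07. The same scaling moves the median by 0.20 in HAPN against HFD and by 0.13 in HAPN against WT. These intervals leave room for differences of over 1 log2 unit in the HSP70 genes.

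Copies and overlapping genes bear on what the values count. The Hspa1a and Hspa1b transcripts were 99.2% identical over 2201 aligned bases of 2967 and 2803. Of stretches of 100 bases, 52.9% in Hspa1a were absent from Hspa1b and 50.1% in Hspa1b were absent from Hspa1a. Other genes were not searched for these stretches. The sources used here do not give the read length or how reads that match both were shared out, so each single value is uncertain. The ratio of Hspa1a to Hspa1b FPKM was 0.281 to 0.291 in HAPN, below its range of 0.294 to 0.510 in the other 8 libraries. It was 0.294 to 0.483 in WT, 0.440 to 0.510 in HFD and 0.339 to 0.416 in HSAPN.

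Dnaja1 has processed pseudogenes, copies without introns, and 2 of them are in the table. Gm15542, at chr7:140890887-140892080, was 99.4% identical to the Dnaja1 transcript over 1194 bases, and Gm7816, at chr5:39798214-39799407, 99.3%. Gm15542 was at 17.1, 25.0 and 15.6 FPKM in HAPN and from 3.61 to 7.88 in the other 8 libraries. Gm7816 was at 3.05, 3.57 and 2.08 FPKM in HAPN and from 0.796 to 1.52 elsewhere. Both pseudogenes were thus higher in all HAPN libraries, as Dnaja1 was. The ratio of Gm15542 to Dnaja1 was 0.224 to 0.336 in HAPN and overlapped its range in WT (0.203 to 0.261), HFD (0.228 to 0.254) and HSAPN (0.272 to 0.319). The ratio of Gm7816 to Dnaja1 was 0.0398 to 0.0476 in HAPN, which overlapped WT (0.0358 to 0.0533) and HFD (0.0432 to 0.0556) and lay below HSAPN (0.0572 to 0.0626). Of 100-base stretches, 34.5% of Gm15542 and 54.2% of Gm7816 were absent from Dnaja1. Gm15542 overlaps the annotated span of Psmd13, a protein-coding gene on the same strand. Whether the pseudogene values come from the pseudogenes, from reads of Dnaja1 or, for Gm15542, from reads of Psmd13 was not tested.

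**Figure D3:**
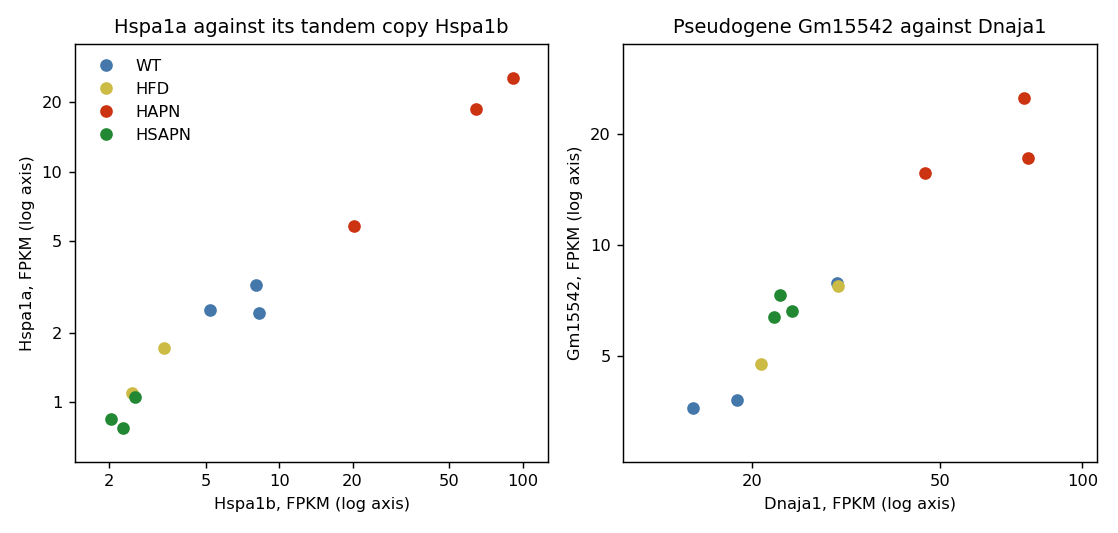
Left, FPKM of Hspa1a against Hspa1b; right, FPKM of the pseudogene Gm15542 against Dnaja1; both axes are log axes and each dot is 1 of 11 libraries, coloured by group. Both pairs move together, with the 3 HAPN libraries at the upper right and Hspa1a at 0.281 to 0.291 of Hspa1b in them.

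Genes on the opposite strand overlap exons of 4 of the 6 genes. The share was 47.2% of the exonic bases of Ahsa2 for Usp34, 19% of Hspa1a for Gm20481, 7.05% of Dnaja1 for Smu1 and 3.98% of Dedd2 for 4933430L12Rik. The library kit keeps strand, but the strand setting of the counting is not given, so Ahsa2 is the least certain of the 6 in this respect. These partners were not analysed here. Hspa1b and Dnajb1 had no such overlap. Within 200 kb of the 6 genes lie 10 other genes of the table. Gipc1 and Ndufb7, near Dnajb1 and picked after their values were seen, were at 15.4 to 16.4 and 14.1 to 17.2 FPKM in HAPN, against 18.2 to 28.9 and 13.5 to 19.5 in the other libraries. Mpig6b, near the HSP70 pair, was at 2.78 to 4.92 FPKM in HAPN and 1.70 to 2.11 in WT, without overlap. It overlapped HAPN in HFD (2.68 to 9.40) and HSAPN (1.85 to 3.71). Levels of the other neighbours are not given here.

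Other cytosolic chaperones were followed through a list of 57 genes, of which 5 were in the table: Hsph1, Chordc1, Dnaja4, Hspb1 and Fkbp5. The rule that chose the genes of the table is not known, so these 5 may not stand for the list. None of the 5 passed the limma threshold in any of the 6 comparisons, against 0.181% of all tested genes in HAPN against HFD, 0.121% in HSAPN against HAPN and 0% in the other 4. All 5 were above 0 in HAPN against WT, with a median of 0.70 against -0.17 for all tested genes, and a smallest limma adjusted p of 0.119. All 5 were also above 0 in HFD against WT, with a median of 0.31 against 0.07 for all tested genes and a smallest limma adjusted p of 0.368. Against HFD, 4 of 5 were above 0 in HAPN (median 0.49, all tested genes -0.24).

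Hsph1 encodes HSP110, which swaps the nucleotide of HSP70 and so resets it for the next substrate. It was at 75.6, 52.0 and 29.4 FPKM in HAPN, 16.9, 15.6 and 18.4 in WT, 20.6 and 21.9 in HFD, and 17.8, 10.03 and 25.2 in HSAPN. As with the 6 genes, all HAPN libraries were above all others, replicate 1 was highest and replicate 3 lowest. Its differences were 1.16 in HAPN against HFD (SE 0.413, limma adjusted p = 0.505), -1.502 in HSAPN against HAPN (SE 0.369, limma adjusted p = 0.213) and 1.48 in HAPN against WT (SE 0.369, limma adjusted p = 0.119).

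Chordc1, an HSP90-binding cochaperone, was at 18.9, 18.3 and 11.3 FPKM in HAPN, 6.11, 5.53 and 11.3 in WT, 8.97 in both HFD libraries, and 9.76, 8.36 and 8.23 in HSAPN. HAPN replicate 3 and WT replicate 3 were level, so HAPN and WT overlapped. Dnaja4, another J-domain gene, was at 26.6, 20.6 and 12.1 FPKM in HAPN and from 7.83 to 19.1 elsewhere, an overlap in every comparison with HAPN. Hspb1, the small heat shock protein HSP27, had another pattern: it was highest in HFD, at 246 and 205 FPKM, and at 160, 146 and 91.3 in HAPN. Its difference was 0.98 in HFD against WT (SE 0.393, limma adjusted p = 0.368) and -0.80 in HAPN against HFD (limma adjusted p = 0.541). Fkbp5, an HSP90 cochaperone and glucocorticoid target, was at 4.60 to 5.90 FPKM in HAPN and 1.24 to 10.6 elsewhere.

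Other stress lists gave no called gene in any comparison. Of all tested genes, 24.9% were above 0 in HAPN against HFD (median -0.24) and 38.0% in HAPN against WT (median -0.17). Of 9 tested immediate early genes, which are switched on within minutes of many stimuli, 3 were above 0 in HAPN against HFD, with a median of -0.03. They ran from -0.94 for Fos to 1.06 for Atf3, both at a limma adjusted p of 0.541. In HAPN against WT, 3 of the 9 were above 0, with a median of -0.50. Of 3 tested genes of oxidative and metal stress, 1 was above 0 in HAPN against HFD. Of 4 glucocorticoid-responsive genes, 3 were above 0 in that comparison (median 0.39), and of 2 mitochondrial chaperones, 1 was. Heat shock factors, chaperones of the endoplasmic reticulum and cold-inducible RNA-binding genes were not analysed here.

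The genes closest to the pattern were ranked by Pearson r over the 11 libraries with the mean standardised level of Hspa1a, Hspa1b, Dnajb1 and Dnaja1. Dedd2 and Ahsa2, which are not in that mean but were chosen for the same pattern, had r of 0.950 and 0.889. Outside the 6 the closest named genes were Hsph1 (0.907), Slc5a3 (0.879), Chordc1 (0.872), Sfn (0.848), Kpna2 (0.845), Naa16 (0.845), Proser2 (0.838) and Hykk (0.827). The libraries fall into HAPN and the rest. Over the 8 libraries without HAPN, r fell to 0.18 for Hsph1, 0.46 for Slc5a3, 0.27 for Chordc1 and 0.01 for Ahsa2. It fell to 0.65 for Dedd2 and to 0.69 for Hykk, which is outside the 6. These r describe the libraries, carry no p, and rest mainly on the HAPN libraries.

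Slc5a3, a myo-inositol transporter induced by osmotic stress, was at 2.53 to 4.89 FPKM in HAPN and 1.26 to 2.91 elsewhere, with overlap. Sfn, which encodes the 14-3-3 sigma protein, was at 28.9 to 37.8 FPKM in HAPN and 16.6 to 27.9 elsewhere, and Naa16, a subunit of an N-terminal acetyltransferase, at 2.08 to 2.75 and 0.708 to 1.56. Both stood apart from the other 8 libraries. Over all 1656 tested genes, 33 had all HAPN libraries above the other 8, or 1.99%.

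**Figure D4:**
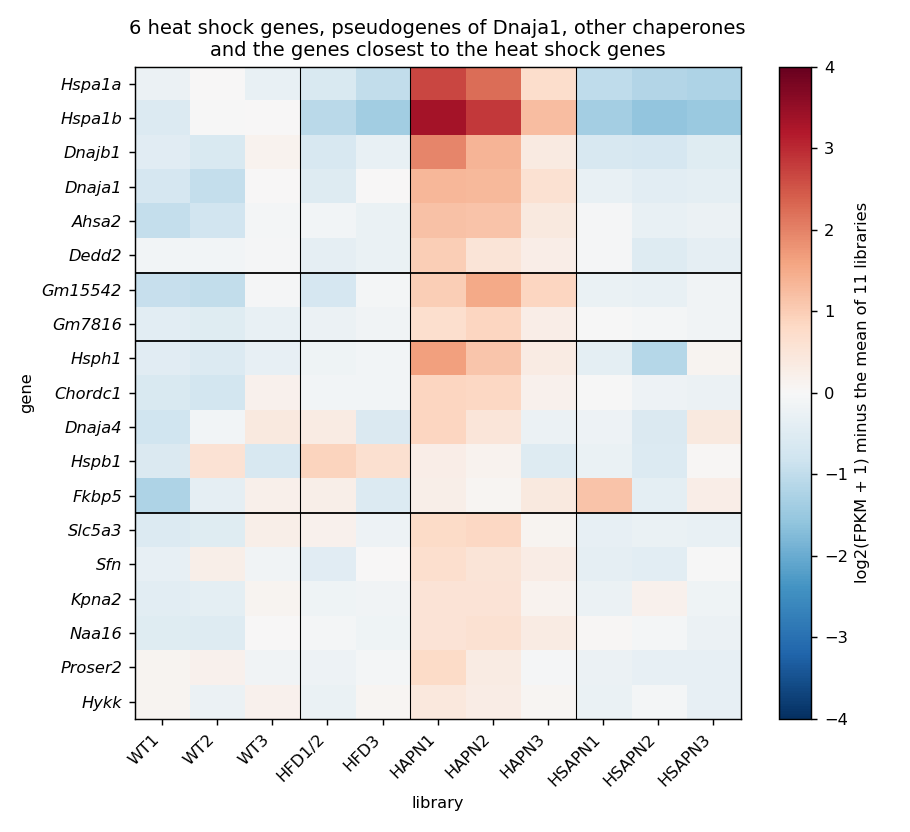
Level of each gene in each library as log2(FPKM + 1) minus the mean of the 11 libraries, from blue (below) to red (above); rows are the 6 genes, the 2 pseudogenes of Dnaja1, 5 other chaperones and the remaining genes closest in pattern. The 3 HAPN columns are red for the 6 genes and Hsph1, palest in HAPN replicate 3, while Hspb1 is highest in HFD.

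Depth was similar in all libraries, at 15610000 to 17840000 recovered reads, of which the table holds 12.05 to 17.6%. The libraries differed in tissue makeup. Summed FPKM of 7 smooth muscle markers, of 9 listed, was 680 to 2808 in WT, 229 to 864 in HFD, 269 to 522 in HAPN and 280 to 487 in HSAPN. The 8 adipocyte markers summed to 8.004 to 78.3 in HAPN and 9.14 to 470 in HFD, and 6 of 7 erythrocyte markers to 1298 to 3889 in HAPN and 399 to 3191 in WT. The airway gene Bpifa1 was at 2.81 to 3848 FPKM in HAPN and 238 to 10735 in WT. HAPN overlapped HFD and HSAPN in each of these sums. Cd4, the only listed T cell marker in the table, was higher in HAPN (1.36 to 4.17 FPKM) than in HFD (1.09 to 1.12) without overlap. Its HAPN values overlapped those of WT and HSAPN. Against WT, the smooth muscle sums of HAPN and HSAPN were lower without overlap. The same held for 4 fibroblast markers of 8 listed, at 142 to 163 in WT, 101 to 117 in HAPN and 108 to 123 in HSAPN. The 6 platelet markers were higher without overlap, at 215 to 496 in HFD, 146 to 221 in HAPN and 176 to 235 in HSAPN against 85.6 to 132.5 in WT. The part of these markers in the results was not tested. Endothelial markers were not analysed here. In bulk tissue, fewer cells of a type and less RNA per cell cannot be told apart.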

How the data were processed

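The deposited files hold 1 FPKM value per gene symbol, made by the authors. Read with GENCODE M21 exonic lengths, 96.09 to 97.2% of values up to 20 reads came out as whole reads (tolerance 0.1), a test that does not tell FPKM from TPM scaling. Per the submitters' processing notes the build was GRCm38, and DESeq 1.8.3 and featureCounts 1.5.0-p3 are listed without their roles. The sources used here name no aligner, annotation, strand setting or rule that chose the 3534 genes.

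Of the gene entries, 2 with a repeated symbol and 4 with symbols turned into dates were left out. The 1656 genes at 1 FPKM or more in 3 or more libraries were tested with limma 3.58.1 in R 4.3.3 (trend, empirical Bayes) on log2(FPKM + 1), with 4 group means, 7 residual degrees of freedom and Benjamini-Hochberg adjustment over all tested genes at 0.05. Fold changes on this scale understate those of low genes. The script was tested on simulated data. The genes and lists were chosen with earlier results of these data known. Named were the 6 genes, listed chaperones in the table and the 8 named genes with the highest r. Transcripts were compared with BLAST 2.17.0, and promoter windows came from RefSeq (GRCm38.p6). Same-numbered libraries showed correlations of deviations from -0.59 to 0.50 over 15 pairs. Deviations from a group mean cancel within the group, so this cannot settle whether the numbers pair samples. The main fit used no pairing. Alternatives were other filters, pseudocounts, scalings, library weights, fits of only the groups compared, a replicate block and leaving out each library.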

Additional observations from a re-analysis of the deposited data

How the results depend on the processing

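The 6 genes kept their direction in the 3 comparisons with HAPN under all 19 alternatives. Their groups did not overlap there, so leaving out a single library could not turn a direction, and the choice of genes favours this outcome. With a pseudocount of 0.1, the HSAPN minus HAPN difference of Hspa1a moved to -3.85. Hspa1a and Hspa1b also kept their direction in the 3 other comparisons. The small differences of the other genes did not all keep it. In HFD against WT, Dnajb1 turned to 0.0040 with library weights, and ranged from -0.32 to 0.068 with single libraries left out (0.011 without HFD replicates 1 and 2, 0.068 without WT replicate 3). In HSAPN against WT, Dnaja1 ranged from -0.036 (without WT replicate 2) to 0.45. In HSAPN against HFD, median-ratio scaling gave 0.043 for Dnajb1 and 0.069 for Dnaja1, and library weights gave -0.0040 for Ahsa2 and -0.014 for Dedd2. There, Ahsa2 was at -0.020 with the identical files as 2 libraries and Dedd2 at -0.0013 with a pseudocount of 0.1. With single libraries left out in HSAPN against HFD, Dnajb1 ranged from -0.30 to 0.034 and Dnaja1 from -0.38 to 0.14, both positive without HFD replicate 3. Ahsa2 ranged from -0.070 to 0.072 and Dedd2 from -0.13 to 0.10, both lowest without HSAPN replicate 1.

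Counts of called genes depended on the setting, and the cause was not tested. HFD against WT, with 0 called, gave 2 without the filter, 6 with the identical files as 2 libraries and 0 to 27 with single libraries left out (27 without WT replicate 3, 17 without HFD replicate 3). HSAPN against WT, with 0, gave 395 with library weights and 0 to 164 with single libraries left out (164 without WT replicate 3). HSAPN against HFD, with 0, gave 2 without the filter, 2 with the identical files as 2 libraries, 1 with only both groups in the fit, and 0 to 3 with single libraries left out. HAPN against HFD, with 3, gave 5 without the filter, 5 with median-ratio scaling, 10 with the identical files as 2 libraries, 0 with library weights, 0 with only both groups in the fit and 0 to 6 with single libraries left out. HSAPN against HAPN, with 2, gave 1 without the filter, 79 with library weights, 0 with only both groups in the fit and 0 to 3 with single libraries left out. HAPN against WT, with 0, gave 1 without the filter, 6 with a filter of 5 FPKM, 16 with median-ratio scaling, 16 with the identical files as 2 libraries, 529 with library weights and 0 to 177 with single libraries left out (177 without WT replicate 3, 6 without HAPN replicate 3). The replicate block, on numbers not known to pair the samples, gave 0 in HAPN against HFD and 1 in HAPN against WT. It gave 3 in HSAPN against HAPN and 0 in the other 3. Hspa1a, at 38 to 171 reads outside HAPN, has the thinnest values.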
